A study of Mus musculus with 24 samples.

Results

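The genes described here are 10 genes by which hematopoietic stem and progenitor cells are commonly recognised: the surface proteins and receptors Kit, Cd34, Flt3, Slamf1 and Procr, and the transcription factors Mecom, Hoxa9, Meis1, Myb and Hlf. They were chosen by name, from the gene names that the scanner files give to the probes, and are 10 of the 37008 genes named on the array. RNA came from the liver and the bone marrow of male mice of genotype Erfe-/-, which lack the erythroid hormone erythroferrone. The mice were bled by retro-orbital puncture and studied 0, 24 or 48 h later, with 4 mice at each time. Each tissue therefore has 3 groups of 4 arrays: 0 h, which the labels call control, 24 h after bleeding and 48 h after bleeding. The 24 arrays lay on 3 slides of 8, each with all 3 times of both tissues. Every group lacks Erfe, so the data hold no wild-type group, and age is not given in the labels. The labels do not say whether a liver array and a marrow array with the same replicate number came from 1 mouse.

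Hematopoietic stem cells sit at the top of the blood lineages and give rise to progenitors that progressively commit to red cells, platelets, myeloid cells or lymphocytes. Receptors such as Kit and Flt3 receive survival and growth signals from stem cell factor and Flt3 ligand, while factors such as Mecom, Hoxa9, Meis1 and Hlf maintain the stem cell programme and Myb drives progenitor expansion. After blood loss, erythropoietin acts mainly on later, erythroid-committed progenitors and precursors, which multiply in the marrow. In whole marrow, stem and early progenitor cells are a small minority, so that fewer cells of a type and less RNA per cell cannot be told apart.

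The array carried 26 probes for the 10 genes among 56605 distinct probes. Levels are log2 of the scanner's processed signal minus the 75th percentile of the array, so that 0 is the 75th percentile and a difference of 1 is a 2-fold difference. Levels belong to a probe, and differences between groups are never taken from one probe to another. Levels of different probes were set side by side only to pick the brightest of a gene. They were combined only in the summed levels and in the mean of all kept probes given below. A gene was tested in a tissue only if some group had every array well above background for 1 of its probes, and the brightest such probe represented it. By this rule 9 of the 10 genes were tested in marrow, where Mecom did not pass, and 8 in liver, where Slamf1 and Myb did not pass. The signal at the 75th percentile ran from 715.0 to 954.7 in marrow and from 361.2 to 473.1 in liver, and 28013 to 35700 probes per array were well above background.

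The marrow sample of replicate 2 at 24 h stood apart. There, 16 hepatocyte genes were read at a median of 11.5% of their liver level, with a range of 7.10% to 37.3%. On the remaining 11 arrays of marrow the median was never above 0.0235% and reached down to 0.00189%. Results at 24 h are therefore also given without that array. Of the probes for the deleted gene, A_55_P2156022 was well above background on 0 of 12 marrow and 0 of 12 liver arrays, and A_51_P121179 on 1 of 12 marrow and 0 of 12 liver arrays. Whether these probes lie in the deleted part of Erfe is not given in the sources used here.

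The probes of Hoxa9 and of Mecom gave different readings, so the first 30 of the 60 bases of their main probes are shown, in lower case throughout because no part is singled out. The Hoxa9 probes lie at chr6:52174477-52175581 and chr6:52174227-52174286 and the Mecom probes at chr3:30135491-30135550 and chr3:29876185-29876244, all in mm9 and all on the minus strand.
Hoxa9 A_55_P2746517: tccgaaaacaatgccgagaatgagagcggc
Hoxa9 A_66_P124343: tgaaaatgaagaaaatcaacaaggaccgag
Mecom A_55_P2111172: gttttgtccctggacacatccttgggaagg
Mecom A_51_P482148: cccgcttgaagctttgaaagaaaaatactt
The first Hoxa9 probe read liver and marrow alike, while the second was well above background in marrow and on 0 of 12 liver arrays. The first Mecom probe was well above background on 11 of 12 liver arrays and 0 of 12 marrow arrays, and the second on 1 of 12 in each tissue.

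In marrow, none of the 9 tested genes passed the threshold at 24 or 48 h after bleeding. The largest differences from 0 h were small: Procr differed by 0.31 and Flt3 by -0.26 at 24 h, and Hlf by 0.22 and Myb by -0.14 at 48 h, all on the log2 scale. Kit, the receptor for stem cell factor, and Cd34, a sialomucin of progenitors and endothelium, differed by -0.21 and -0.15 at 24 h, and by -0.07 and -0.13 at 48 h. Over all 21399 genes tested in marrow, 1.01% passed at 24 h, split into 0.551% that rose and 0.463% that fell. The share was 1.23% at 48 h, of which 1.06% rose and 0.173% fell, so that 0 of 9 is near this background. The test was limma's, over the 12 marrow arrays in 1 fit, with Benjamini-Hochberg adjustment over all genes and a threshold of 0.05. Between 24 and 48 h none of the 9 passed either, against 0.00467% of all genes.

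**Figure D1:**
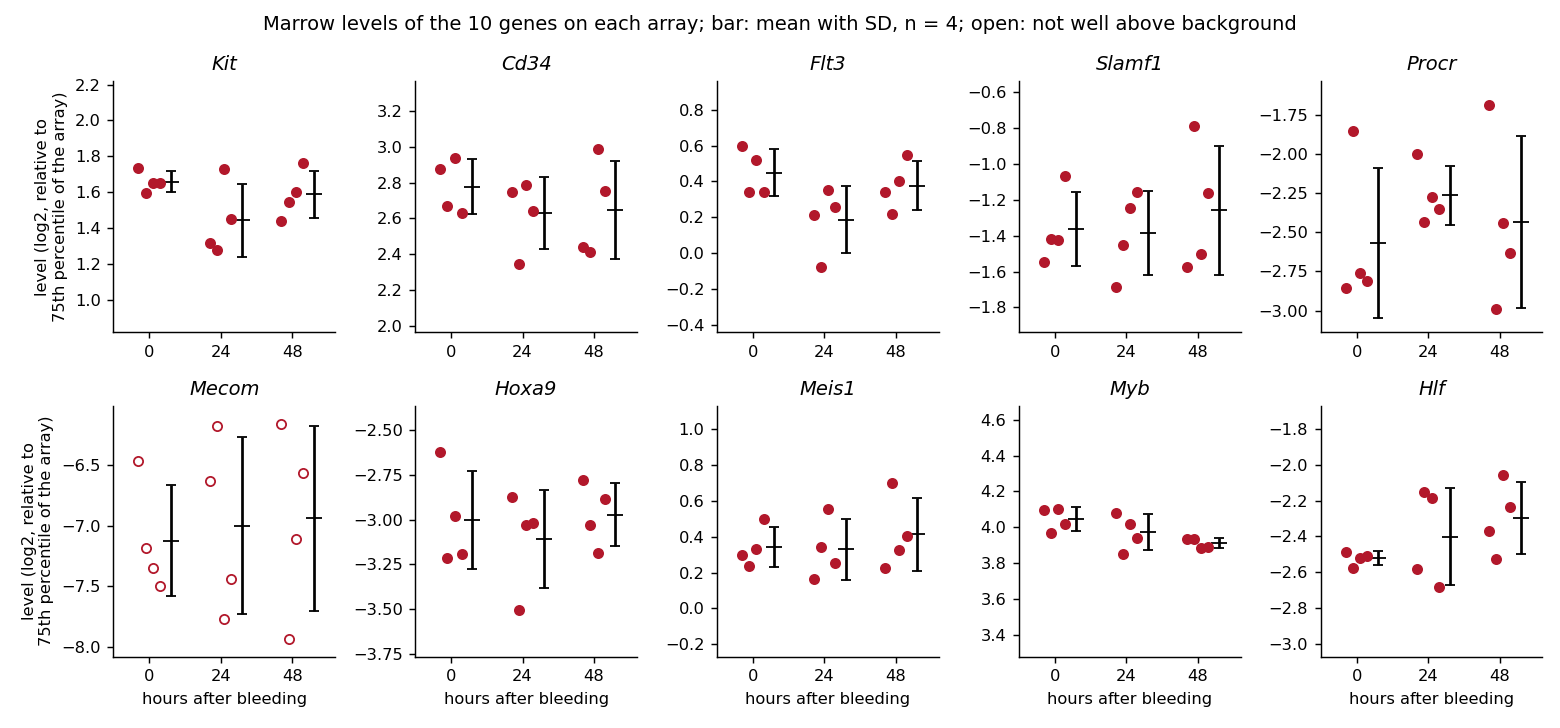
Levels of the 10 genes on the 12 marrow arrays at 0, 24 and 48 h, as log2 signal relative to the array's 75th percentile, with 1 panel and 1 axis per gene; points are arrays, bars are group means with SD (n = 4), and open points are arrays on which the probe was not well above background. The 3 times overlap for every gene except Myb, whose 4 arrays at 48 h (3.88 to 3.94) lie below those at 0 h (3.97 to 4.10).

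Kit was read at 1.74, 1.60, 1.65 and 1.65 on the 4 arrays at 0 h, at 1.32, 1.28, 1.73 and 1.45 at 24 h, and at 1.44, 1.55, 1.60 and 1.76 at 48 h, by probe A_66_P128434 (mm9 chr5:76052394-76052453). At 24 h, 3 of the 4 arrays lay below all those at 0 h and 1 lay near their top. The mean went from 1.66 ± 0.058 (SD, n = 4) to 1.44 ± 0.20 and 1.59 ± 0.13, and the difference at 24 h of -0.21 (SE 0.11, adjusted p = 0.431 by limma) did not pass. Within the 3 slides it ran from -0.37 to -0.06, and without the array that carried hepatocyte signal it was -0.16. A pair of other Kit probes, matched to the transcript AK047175, differed by 0.18 and 0.32 at 24 h, and 0.36 and 0.22 at 48 h. The 0.32 rested on the array that carried hepatocyte signal (-1.37), and without it that probe differed by -0.17 and the other by 0.13.

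Cd34 (probe A_51_P204740, mm9 chr1:196787392-196787451) was read at 2.88, 2.67, 2.94 and 2.63 at 0 h, 2.75, 2.34, 2.79 and 2.64 at 24 h, and 2.44, 2.41, 2.99 and 2.75 at 48 h. The 3 groups overlapped throughout. The means were 2.78 ± 0.15, 2.63 ± 0.20 and 2.65 ± 0.27 (SD, n = 4 each), and the differences of -0.15 (adjusted p = 0.720) and -0.13 (adjusted p = 0.705) were within the spread between mice.

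Flt3, the receptor tyrosine kinase of multipotent and lymphoid progenitors and of dendritic cells, was the gene with the smallest p among the 9 at 24 h. It was read at 0.59, 0.34, 0.52 and 0.34 at 0 h, at 0.21, -0.08, 0.35 and 0.26 at 24 h, and at 0.34, 0.22, 0.40 and 0.54 at 48 h, by probe A_66_P116412 (mm9 chr5:148142576-148142635). At 24 h, 3 of 4 arrays lay below the range at 0 h, while at 48 h only 1 did. The difference at 24 h was -0.26 (SE 0.11, adjusted p = 0.353), with a 95% interval of -0.50 to -0.02, within-slide values of -0.60 to -0.03, and -0.17 without the array that carried hepatocyte signal. Its unadjusted p of 0.0362 was the only 1 under 0.05 among the 9 genes at 24 h, where 12.6% of all genes were under 0.05. The second Flt3 probe, A_66_P126155, gave -0.32 at 24 h and -0.23 at 48 h.

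Slamf1, the SLAM family receptor used with Cd48 to separate stem cells from progenitors, was read at -1.55, -1.42, -1.42 and -1.07 at 0 h, at -1.69, -1.45, -1.25 and -1.16 at 24 h, and at -1.57, -0.79, -1.50 and -1.16 at 48 h. The differences were -0.02 and 0.11, with 1 array at 48 h (-0.79) above all others. Procr, the endothelial protein C receptor found on stem cells, was read at -2.86, -1.85, -2.76 and -2.81 at 0 h, -2.0, -2.43, -2.27 and -2.35 at 24 h, and -1.68, -2.99, -2.44 and -2.63 at 48 h. A single array at 0 h (-1.85) lay far above the other 3, so that all 4 values at 24 h fell inside the range at 0 h. The Procr differences of 0.31 and 0.13 had SEs of 0.28.

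Among the factors, Myb, a driver of progenitor expansion that falls as cells mature, was read at 4.10, 3.97, 4.10 and 4.02 at 0 h, 4.08, 3.85, 4.02 and 3.94 at 24 h, and 3.94, 3.94, 3.88 and 3.89 at 48 h. All 4 values at 48 h lay below all 4 at 0 h, with the 24 h values between and overlapping both. The mean went from 4.05 ± 0.065 to 3.91 ± 0.028 (SD, n = 4), a difference of -0.14 (SE 0.070, adjusted p = 0.373 by limma) that did not pass. It was negative on all 3 slides, from -0.19 to -0.10. Myb was the only 1 of the 9 genes whose groups did not overlap at 48 h, against 12.7% of all genes tested, and at 24 h none of the 9 were separated, against 8.27% of all genes. Of the other Myb probes, A_55_P2745608 gave -0.17 and A_52_P444839 -0.01 at 48 h. None of the 9 genes, Myb included, had an unadjusted p under 0.05 at 48 h, where 16% of all genes did. From 24 to 48 h 0 of 9 had an unadjusted p under 0.05, against 7.68% of all genes, and 0 of 9 were separated, against 3.71%.

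Meis1, the homeobox partner of Hoxa9, was read at 0.30, 0.24, 0.33 and 0.50 at 0 h, 0.16, 0.34, 0.56 and 0.25 at 24 h, and 0.23, 0.70, 0.33 and 0.40 at 48 h. Its differences were -0.01 and 0.07, and the 3 groups overlapped. Hoxa9 was read at -2.62, -3.21, -2.98 and -3.19 at 0 h, -2.87, -3.51, -3.03 and -3.02 at 24 h, and -2.78, -3.03, -3.19 and -2.89 at 48 h, by probe A_66_P124343. The differences were -0.11 and 0.03, and the first turned to 0.03 without the array that carried hepatocyte signal. The other Hoxa9 probe, A_55_P2746517, gave 0.50 at 24 h, where 1 array was at -1.60 and the other marrow arrays at -4.09 to -3.41.

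Hlf, a PAR bZIP factor of stem cells that liver also uses, was read at -2.48, -2.58, -2.52 and -2.51 at 0 h, -2.58, -2.15, -2.19 and -2.68 at 24 h, and -2.37, -2.53, -2.06 and -2.23 at 48 h. At 48 h, 3 of 4 arrays were above the range at 0 h, where the 4 arrays agreed closely (SD 0.039). The differences were 0.12 (SE 0.13, adjusted p = 0.757) and 0.22 (SE 0.13, adjusted p = 0.443), the second between 0.16 and 0.27 within the slides. Mecom, which encodes the zinc-finger factor Evi1 and its longer PR-domain form, was well above background on 1 of 12 marrow arrays by probe A_51_P482148 (replicate 2 at 0 h, at -4.36) and on 0 of 12 by the other 4 probes. Its marrow level was thus not detectable, and no change in marrow is given.

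Over the 9 genes the median difference in marrow was -0.07 at 24 h and 0.03 at 48 h, and 0.10 from 24 to 48 h. Over all genes tested the medians were -0.02, 0.00 and 0.03. The 95% intervals of the 9 genes lay within -0.50 to 0.92 at 24 h and -0.48 to 0.75 at 48 h, with the widest for Procr. Each gene has its own interval, so these outer bounds are not a limit of detection for any 1 gene. A change inside a gene's own interval is not excluded, and a p that misses the threshold does not show that a gene stayed the same. Probes of 1 gene often differed in direction: of the 10 other kept probes, 5 had the sign of the representing probe at 24 h and 6 at 48 h.

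**Figure D2:**
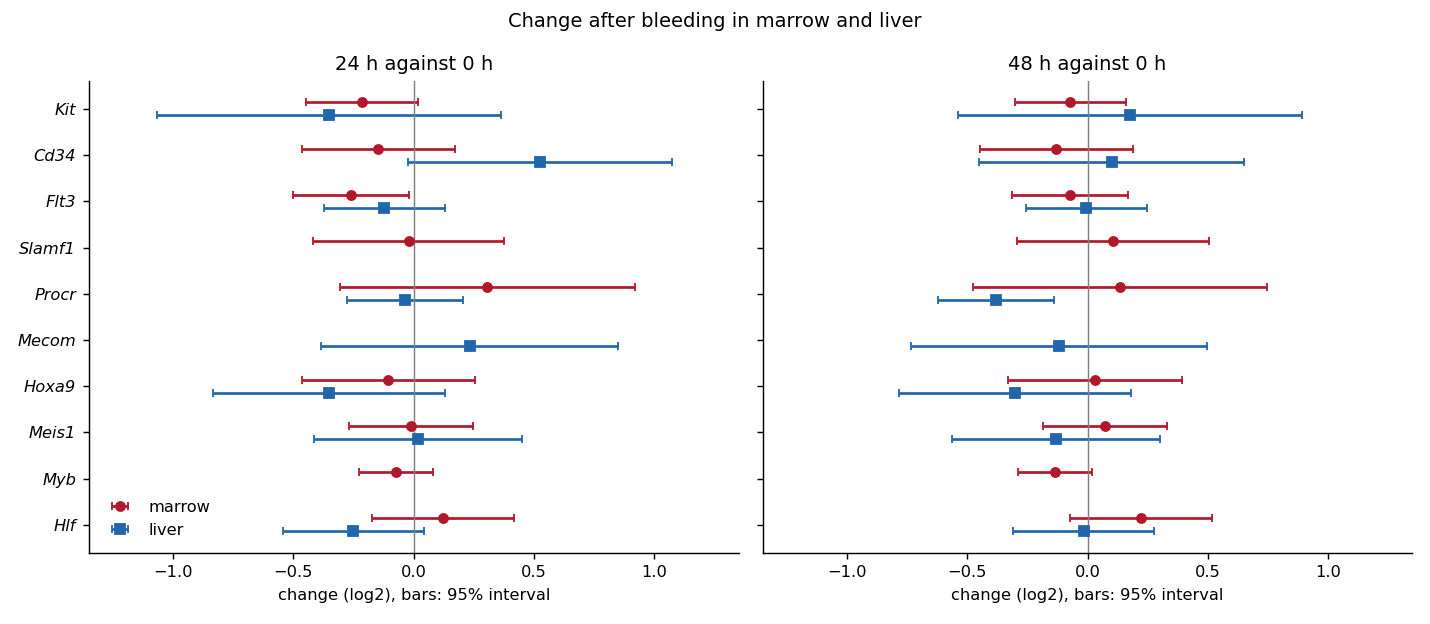
Difference in level from 0 h at 24 h and 48 h, in log2 units, in marrow and in liver, for each gene tested in that tissue; points are limma estimates and bars their 95% intervals from 4 arrays per group. Most intervals include 0, the exceptions being Flt3 in marrow at 24 h (-0.50 to -0.02) and Procr in liver at 48 h (-0.62 to -0.14), and neither passed the adjusted threshold.

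In liver, 0 of the 8 tested genes passed at 24 h, at 48 h or between these times, and neither did any of the 19648 genes tested there (0% in all 3 comparisons). Without adjustment, 0 of 8 genes had a p under 0.05 at 24 h (10.9% of all genes, 2146 genes), 1 at 48 h (6.44%, 1266 genes) and 1 from 24 to 48 h (7.63%, 1499 genes). That gene was Procr, which is expressed by endothelium. It was read at -1.63, -1.76, -1.53 and -1.41 at 0 h, at -1.60, -1.48, -1.67 and -1.73 at 24 h, and at -2.13, -2.14, -1.83 and -1.76 at 48 h. All values at 48 h lay below those at 24 h, and 3 of 4 lay below those at 0 h. The differences were -0.38 against 0 h (SE 0.11, adjusted p = 0.589, within slides -0.45 to -0.34) and -0.34 against 24 h (SE 0.11, adjusted p = 0.526).

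The separation of Procr between 24 and 48 h compares with 3.66% of all genes in liver. In the comparisons with 0 h, 0 of 8 genes were separated by their representing probe, against 5.53% of all genes at 24 h and 4.2% at 48 h. The largest difference at 24 h was Cd34, at 0.53 (SE 0.25, adjusted p = 0.470), with liver arrays at -0.56, -0.86, -0.36 and -0.85 at 0 h, and -0.27, 0.73, -0.26 and -0.72 at 24 h. A single array at 24 h (0.73) lay far above the other 3. Liver Kit was read at -0.48, -1.09, -0.20 and -0.63 at 0 h, -1.69, -1.44, -0.10 and -0.57 at 24 h, and -0.73, -0.63, -0.14 and -0.20 at 48 h, with a wide spread at 24 h (SD 0.74). Liver Hlf was read at 0.12, 0.42, 0.46 and 0.60 at 0 h, 0.17, 0.14, 0.14 and 0.14 at 24 h, and 0.58, 0.60, 0.01 and 0.34 at 48 h, and the differences were -0.25 (adjusted p = 0.511) and -0.02. Mecom in liver, by A_55_P2111172, differed by 0.23 and -0.12, Hoxa9 by -0.35 and -0.30, Meis1 by 0.02 and -0.13, and Flt3, by probe A_66_P126155, the brighter in liver, by -0.12 and -0.01. The Flt3 probe used in marrow, A_66_P116412, differed in liver by 0.18 at 24 h and by -0.36 at 48 h. Its liver arrays at 48 h (-3.94 to -3.75) lay below all those at 0 h and at 24 h. The direction of Flt3 in liver thus differed between the probes at 24 h against 0 h and from 24 to 48 h. Against 0 h at 48 h it was negative by both probes.

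The change in marrow minus the change in liver, fitted over all 24 arrays, can be read for the 7 genes whose probe in that fit was kept in both tissues, so not for Mecom, Slamf1 or Myb. It passed for 0 of these 7 at 24 h (0.364% of all 22781 genes) and for 0 of 7 at 48 h (0.413%). In limma's test without adjustment, 2 genes were under 0.05 at 24 h, against 11.4% of all genes: Cd34 (-0.67, adjusted p = 0.400) and Flt3 (-0.44, adjusted p = 0.427). The Flt3 value is for probe A_66_P116412 in both tissues, with a difference of -0.26 in marrow and 0.18 in liver. Without the marrow array that carried hepatocyte signal, the values were -0.58 for Cd34 and -0.35 for Flt3. Over all alternatives the Cd34 value ran from -0.87 to -0.39, the smallest without the liver array at 24 h that read 0.73. The Flt3 value ran from -0.54 to -0.26. At 48 h 0 of 7 were under 0.05, against 11% of all genes. These fits take the 24 arrays as independent, although 4 mice per time would mean that the tissues share mice. With time and replicate number as a random block (estimated correlation 0.111), still 0 of the genes passed, against 164 and 167 of all genes in place of 83 and 94.

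The tissues differed in most of these genes, at a share near that of all genes tested. At 0 h, 8 of the 10 genes differed between marrow and liver at an adjusted p under 0.05, 5 of them higher and 3 lower in marrow, against 80.2% of all genes tested (39.6% higher and 40.6% lower). Slamf1, Myb and Mecom entered this fit only through the tissue in which they were bright. The probe filter thus set their direction, and the count does not test it. The share over all genes also includes genes that entered in that way. Kit was 2.26 higher in marrow (4.79-fold, adjusted p = 6.49e-08), Cd34 3.43 higher (10.8-fold) and Flt3 3.90 higher, on levels relative to each array's 75th percentile. Slamf1 was not well above background on any liver array at 0 h, and was at least 8.79-fold higher in marrow. The brightest Myb probe was above background on 1 of the 4 liver arrays at 0 h, so no size is given for it. The other Myb probes, above background on none of these 4, were at least 10.3-fold and at least 26.6-fold higher in marrow.

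The 3 genes lower in marrow were Hlf, Mecom and Procr. Hlf differed by -2.92 (7.56-fold), Procr by -0.99 (1.98-fold, adjusted p = 0.0004) and Mecom was at least 3.20-fold lower by probe A_55_P2111172, which no marrow array read well above background. Meis1 was 0.25 higher in marrow (adjusted p = 0.181) and did not pass. Hoxa9 depended on the probe: A_55_P2746517 gave -0.04 (adjusted p = 0.928), while A_66_P124343, not well above background in liver, gave at least 2.82-fold higher in marrow. Flt3 did too, since its second probe A_66_P126155 differed by -0.88, with overlapping groups.

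**Figure D3:**
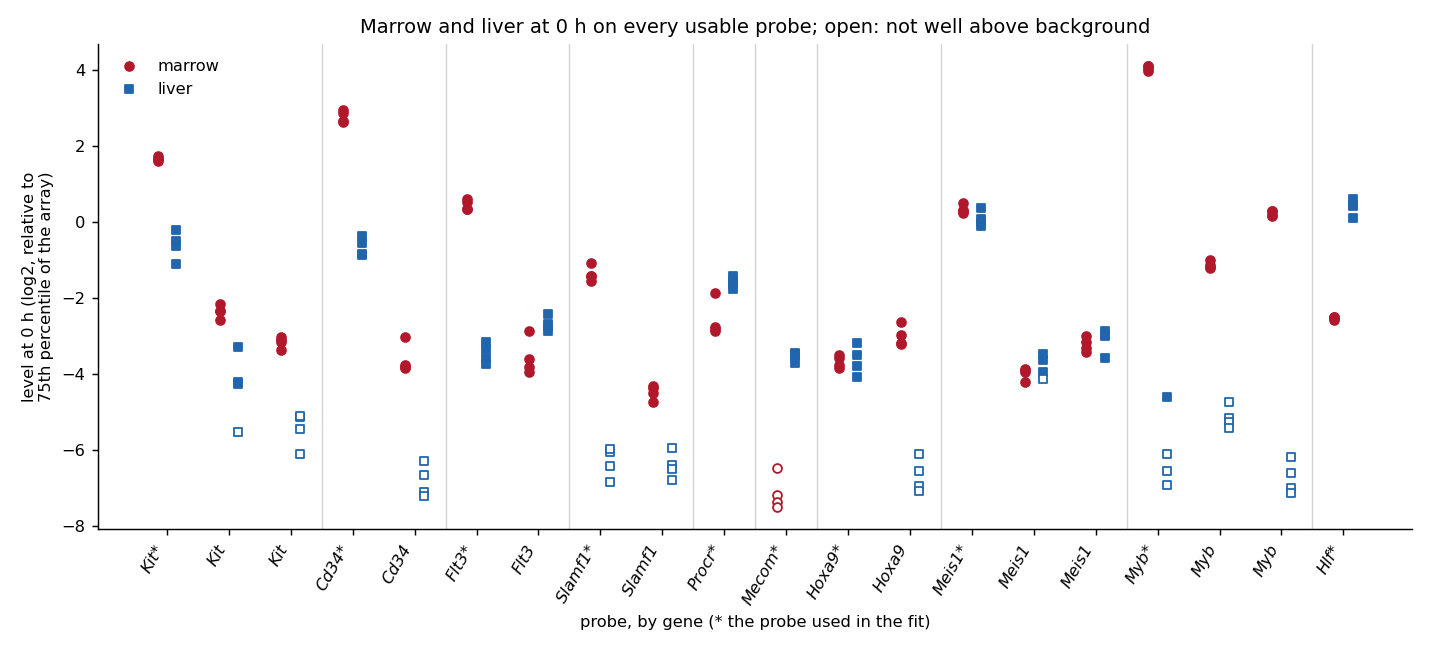
Level of every usable probe of the 10 genes at 0 h in marrow and in liver, in log2 units relative to the array's 75th percentile; each point is 1 array, and open points are arrays on which the probe was not well above background. Kit, Cd34, Slamf1 and Myb probes lie higher in marrow, Hlf, Mecom and Procr lower, and the probes of Hoxa9 and of Flt3 differ from each other.

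Genes of the same cells and of their neighbours were counted in lists chosen with earlier results of these data known. For comparison, 0.551% of all genes tested in marrow were called higher and 0.463% lower at 24 h. At 48 h these shares were 1.06% and 0.173%. Of all genes, 44.6% had a positive difference at 24 h and 50.3% at 48 h. The groups did not overlap for 8.27% and 12.7% of all genes. Of 25 further surface proteins and receptors of progenitors, 24 were tested in marrow, with 1 called lower at 24 h and 0 at 48 h and medians of -0.10 and -0.12. That gene was Thy1, a surface protein of T cells and of some stem cells, at 1.39, 1.31, 1.27 and 1.48 at 0 h and 0.72, 0.32, 0.91 and 0.71 at 24 h. The groups did not overlap, and Thy1 fell by 0.70 (SE 0.14, adjusted p = 0.0397). Leaving out any 1 of 9 of the 12 arrays ended this call, with adjusted p-values of 0.0523 to 0.115. These were all 4 arrays at 0 h, replicates 1, 2 and 4 at 24 h and replicates 1 and 3 at 48 h, and without the array that carried hepatocyte signal the difference was -0.58 (adjusted p = 0.0686).

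Of 32 further transcription and chromatin factors, 31 were tested, with 0 called at 24 h and 2 called higher at 48 h, and medians of -0.08 and -0.10. Mllt3, a cofactor of transcription elongation that also supports stem cells, was read at 0.05, 0.18, 0.11 and 0.31 at 0 h and at 1.03, 1.24, 1.02 and 1.01 at 48 h, and rose by 0.91 (SE 0.11, adjusted p = 0.0033). Its second probe differed by 0.00 at 48 h, and the mean of both probes by 0.46 (adjusted p = 0.0775). Tal1, a factor of stem cells that is also a core erythroid and megakaryocytic regulator, was read at 3.92, 3.94, 4.05 and 4.18 at 0 h and at 4.74, 4.84, 4.55 and 4.48 at 48 h, and rose by 0.63 (SE 0.11, adjusted p = 0.0203). In neither did the groups overlap. The Tal1 call was lost with the slide as a block (adjusted p = 0.0807) and without any 1 of 5 arrays (replicates 1, 2 and 3 at 0 h, and 1 and 2 at 48 h), with adjusted p-values of 0.0662 to 0.085. Gata2, a further early factor, differed by -0.32 at 24 h and -0.27 at 48 h and did not pass (adjusted p = 0.298 and 0.301).

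All 14 erythroid markers had a positive difference at 48 h, with a median of 0.48, and 2 passed: Tfrc, the transferrin receptor, rose by 1.02 (adjusted p = 0.0033) and Rhag, an erythroid membrane protein, by 0.74 (adjusted p = 0.0357). At 24 h, 1 passed (Tfrc, by 0.80, adjusted p = 0.0143) and the list's median was 0.19. The Tfrc call at 24 h was lost without replicate 2 at 0 h (adjusted p = 0.0557). The Rhag call was lost with the slide as a block (adjusted p = 0.0967) and without any 1 of 7 arrays (replicates 1, 2 and 3 at 0 h, 1 at 24 h, and 1, 2 and 4 at 48 h), with adjusted p-values of 0.0555 to 0.134. The summed erythroid level, in multiples of the 75th percentile, was 423.8 to 575.9 at 0 h, 421.9 to 568.3 at 24 h and 533.7 to 719.8 at 48 h. For the 9 tested genes described here the sum was 28.4 to 31.5, 25.0 to 30.2 and 26.9 to 29.2. Such sums are set mostly by the brightest probes, here those of Myb and Cd34, and say little about the dimmer genes. Tal1 rose beside these markers, and their part in its change was not tested. Kit and Myb are also expressed by early erythroid progenitors, and the part of these cells in their values was not tested.

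Markers of lymphocytes had negative differences. Of 8 T cell genes tested, 2 fell at 24 h, Cd8a by 1.09 (SE 0.20, adjusted p = 0.0254) and Cd3d by 0.64 (SE 0.12, adjusted p = 0.0353), 0 passed at 48 h, and all 8 differences were negative at both times. The Cd8a call was lost without any 1 of 5 arrays (all 4 at 0 h, and replicate 4 at 24 h; adjusted p 0.0553 to 0.0947). The Cd3d call was lost with the slide as a block (adjusted p = 0.0568) and without any 1 of 8 arrays (all 4 at 0 h, replicates 1 and 4 at 24 h, and 1 and 4 at 48 h; adjusted p 0.0567 to 0.103). The summed T cell level was 9.27 to 10.3 at 0 h, 6.99 to 8.33 at 24 h and 7.62 to 8.61 at 48 h, and these ranges at 0 h and after bleeding did not overlap. Thy1 fell with these markers, and their part in its change was not tested. None of 11 B cell genes passed, with all 11 differences negative at both times and medians of -0.65 and -0.43. Flt3 and Myb are also expressed by lymphoid progenitors, and the part of B cell progenitors in their values was not tested.

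Of 7 mast cell genes tested, 0 passed at 24 h and 1 fell at 48 h, with medians of -0.33 and -0.42. Ms4a2, a subunit of the high-affinity IgE receptor, was read at 0.56, 0.37, 0.40 and 0.62 at 0 h and -0.16, -0.20, -0.04 and 0.02 at 48 h, and fell by 0.58 (SE 0.10, adjusted p = 0.0163). The call was lost without replicate 1 at 0 h (adjusted p = 0.064), replicate 1 at 48 h (0.0585) or replicate 2 at 48 h (0.0712). Kit, which mast cells carry, did not pass at that time. None passed among 8 early myeloid, 8 megakaryocyte, 12 endothelial and 8 dendritic genes at either time. All 8 early myeloid differences were negative at 48 h, with a median of -0.23. The largest difference in each of these lists was that of Cebpe (-0.35 at 48 h, adjusted p = 0.405), Itga2b (0.28 at 48 h), Tek (0.63 at 24 h, adjusted p = 0.111) and Cd209a (-0.94 at 24 h, adjusted p = 0.073).

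Of 12 processing alternatives other than leaving out an array, the call was lost under 5 for Rhag, 4 for Cd3d, and 3 each for Tal1, Thy1, Cd8a and Ms4a2. It was lost under 1 for Mllt3 and for Tfrc at 24 h, and under 0 for Tfrc at 48 h.

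None of the 14 cell cycle genes passed, with medians of 0.03 and 0.13 and the largest differences for Ccnd1 (-0.46 at 24 h) and Myc (0.41 at 48 h). Of 11 PAR bZIP and clock genes, the relatives and regulators of Hlf, 0 passed at either time, with differences of 0.76 for Dbp, 0.69 for Nr1d1, 0.51 for Per3 and -0.59 for Per1 at 24 h. Of 13 ligands, 9 were tested and 0 passed. Cxcl12, the niche chemokine that retains stem cells, differed by -0.37 and -0.44, and Thpo by 0.28 at 48 h. F2 differed by 2.49 at 24 h (adjusted p = 0.616), which came from the 1 array with hepatocyte signal, at 5.43 against -5.13 to -3.22 on the other 3. Of 16 hepatocyte genes 8 were tested in marrow and 0 passed.

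**Figure D4:**
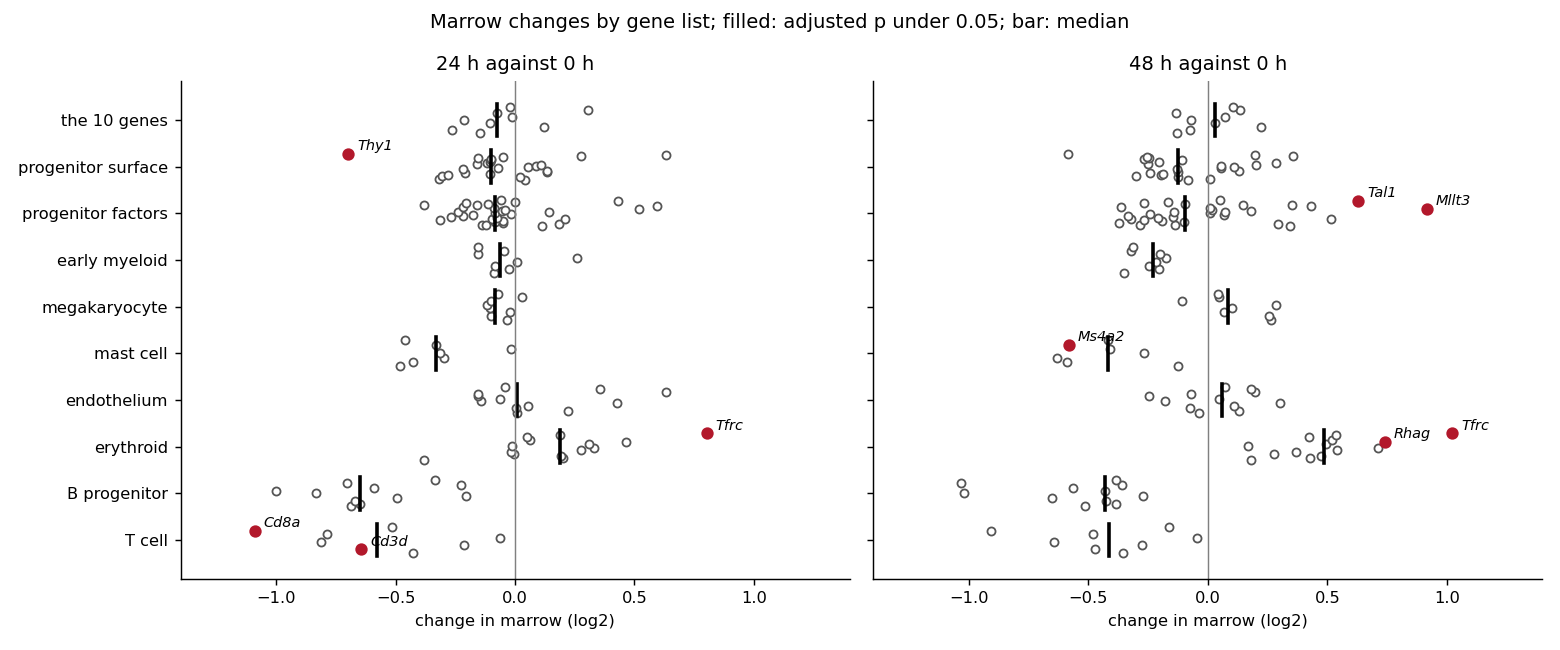
Difference from 0 h in marrow at 24 h and 48 h, in log2 units, for each tested gene of the 10 genes and of 9 of the other lists (the ligand, cell cycle, clock, dendritic and hepatocyte lists, with no call, are not drawn); filled points passed the adjusted threshold in limma's test, open points did not, and bars are list medians. Filled points are Thy1, Tfrc, Cd3d and Cd8a at 24 h, and Mllt3, Tal1, Ms4a2, Tfrc and Rhag at 48 h, and none is among the 10 genes.

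Across the 12 marrow arrays the 9 genes did not share a common rise and fall. Over the 36 pairs the median Pearson r was -0.02, with 17 pairs above 0 and a range of -0.63 (Meis1 and Procr) to 0.84 (Kit and Flt3). After Benjamini-Hochberg adjustment over the 36 pairs, 2 pairs had a permutation p under 0.05 for r. Kit and Flt3 had r = 0.84 (adjusted permutation p = 0.0108) and Spearman's rho = 0.85 (adjusted permutation p = 0.036). Leaving out the 2 arrays with Kit levels farthest from the median gave r = 0.71, leaving out the array with hepatocyte signal gave 0.76, and deviations from the group means gave 0.75. No p was computed for these values.

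Slamf1 and Meis1 had r = 0.83 (adjusted permutation p = 0.0178), but rho was 0.72 (adjusted permutation p = 0.127), and r without the 2 farthest arrays was 0.59. Cd34 and Flt3 had r = 0.73 (adjusted permutation p = 0.0594). The genes with the most similar pattern over the 12 arrays were Sipa1l3, Cndp2 and Septin1 for Kit (r = 0.92, 0.90 and 0.90), Fam174a, Matk and B3galt4 for Cd34 (0.96, 0.95 and 0.95) and Lemd2, Txnip and Lime1 for Flt3 (0.93, 0.89 and 0.89). For Myb they were Tagap, Adora3 and Arl14ep (0.93, 0.92 and 0.92), and for Meis1 Ubash3b, Plek and Nlk (0.89, 0.89 and 0.88). The highest were Robo3 for Slamf1 (0.95), Sprr2j-ps for Hoxa9 (0.92), Ppm1e for Procr (0.85) and Galt for Hlf (0.78). These were picked as the highest of all genes tested, so their r carries no p.

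**Figure D5:**
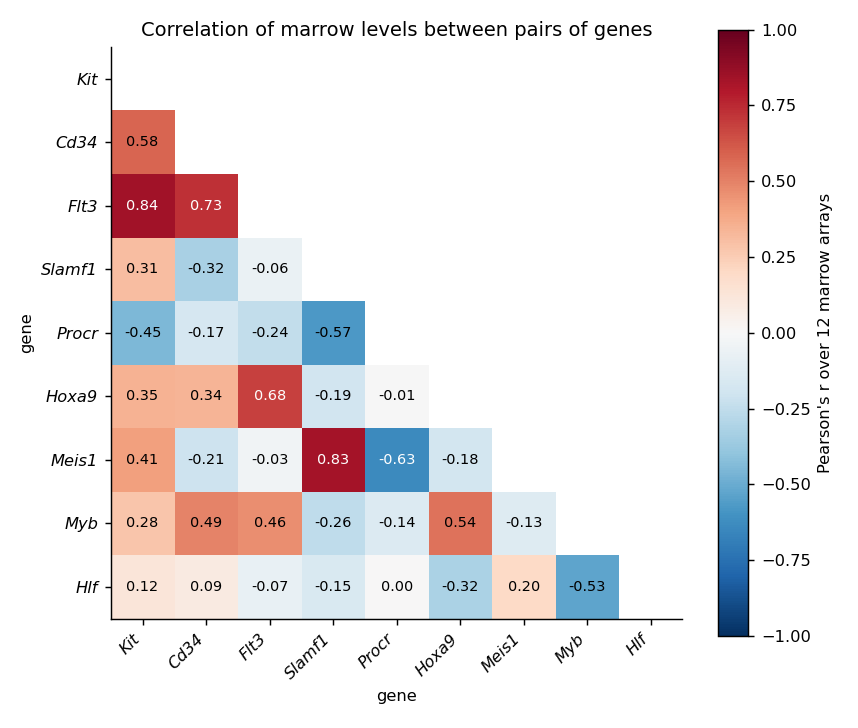
Pearson r between the levels of each pair of the 9 tested genes over the 12 marrow arrays. The highest are Kit with Flt3 (0.84), Slamf1 with Meis1 (0.83) and Cd34 with Flt3 (0.73), and the lowest is Meis1 with Procr (-0.63).

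Promoter windows of 250 bases before and 50 after the start site, from RefSeq on GRCm38.p6, were found for all 10 genes, in 12 windows. Those of Kit and Flt3 are shown because these receptors had the closest pattern of any pair among the tested genes of the 10, and those of Tal1 and Ms4a2 because these genes passed the test in opposite directions. They run 5′ to 3′ on the strand of the gene, and were chosen after their matches were seen. Capitals mark matches to AGATAA (the GATA core, also as TTATCT on the other strand) and to CACGTG, an E-box.
Kit, chr5:75574737-75575036, plus strand: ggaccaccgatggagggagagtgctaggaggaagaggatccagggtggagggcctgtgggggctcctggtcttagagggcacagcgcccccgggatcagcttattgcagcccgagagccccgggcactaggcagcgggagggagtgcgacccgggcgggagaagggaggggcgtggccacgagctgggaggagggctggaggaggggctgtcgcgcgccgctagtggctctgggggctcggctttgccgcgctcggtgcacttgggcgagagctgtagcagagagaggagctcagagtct
Flt3, chr5:147400440-147400739, minus strand: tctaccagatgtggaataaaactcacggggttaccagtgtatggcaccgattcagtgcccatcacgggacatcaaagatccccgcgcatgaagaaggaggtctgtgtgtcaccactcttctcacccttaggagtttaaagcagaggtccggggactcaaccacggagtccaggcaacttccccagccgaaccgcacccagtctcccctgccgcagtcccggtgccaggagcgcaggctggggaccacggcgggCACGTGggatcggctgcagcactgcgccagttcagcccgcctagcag
Tal1, chr4:115056176-115056475, plus strand: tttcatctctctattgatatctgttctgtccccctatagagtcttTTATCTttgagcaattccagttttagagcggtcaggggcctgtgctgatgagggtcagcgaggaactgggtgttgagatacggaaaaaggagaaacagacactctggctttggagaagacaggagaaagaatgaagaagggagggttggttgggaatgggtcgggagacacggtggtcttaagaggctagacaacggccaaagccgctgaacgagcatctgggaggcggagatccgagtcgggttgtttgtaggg
Ms4a2, chr19:11623670-11623969, minus strand: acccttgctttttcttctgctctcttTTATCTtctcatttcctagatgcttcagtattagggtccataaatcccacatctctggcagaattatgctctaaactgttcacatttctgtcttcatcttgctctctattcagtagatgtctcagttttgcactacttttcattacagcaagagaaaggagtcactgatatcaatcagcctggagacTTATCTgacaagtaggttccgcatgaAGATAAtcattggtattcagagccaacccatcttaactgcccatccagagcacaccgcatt
AGATAA or TTATCT was in 0 of the 12 windows of the 10 genes, against 11.2% of all 32851 windows. In so few windows, 0 is near this background. The Kit windows start at chr5:75574737 and chr5:75574741 and overlap almost wholly, so the 12 are not separate promoters. The GATA site was in 1 of the 2 windows of Tal1 (at -205 from the start) and in that of Ms4a2 (3 matches, at -224, -37 and -11). It was in none of the windows of Mllt3, Tfrc, Rhag, Cd3d and Cd8a, the other list genes that passed and for which a window was read. CACGTG was in 1 of the 12 windows, that of Flt3 at 4 bases from the start, against 7.15% of all. CCGGAA or TTCCGG, 1 form of the Ets site, was in 2 of the 12, Meis1 at -11 and Hlf at -125, against 14.9% of all. TTACGTAA, the PAR bZIP core, was in 0 of 12, against 0.119% of all. A match is only a match of letters.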

How the data were processed

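Single-colour Agilent arrays measured total RNA of 24 samples. Per the file headers, the deposited scanner files hold the processed signal intensity of each spot, background-subtracted and detrended by Feature Extraction 10.10.1.1, with probe positions on mm9. The authors also deposited a table of log2-like values, which correlated at r = 0.988 to 0.993 with the log2 scanner values of the same array and had column medians of 7.74 to 8.31. It was not centred by gene; how it was scaled is not given in the sources used here, although limma is named per the submitters' processing notes, and it served only as an alternative.

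The intensities were converted to log2 and the 75th percentile of all 59305 non-control spots subtracted; the 3671 control spots were left out. Outlier spots were dropped, and spots of a probe averaged. Tests used limma 3.58.1 in R 4.3.3 (lmFit and eBayes, two-sided), with the 3 times of a tissue in 1 fit, or all 24 arrays for comparisons between tissues, and Benjamini-Hochberg adjustment over all genes. Where a probe was below background on all arrays of a group, the difference is a lower bound: the bright group's mean against, per array, the higher of the dim probe's signal and the lowest signal well above background. The fits were tested on simulated data. Names were updated through RefSeq by accession for 32994 probes, by symbol for 10224 and by synonym for 520, and kept as in the files for 12867. Replicates are separate mice, and their number limits the precision.

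The 10 genes and the lists were chosen with earlier results of these data known. Named genes were all 10 members of the list, Erfe, every called gene of each list or, where none was called, up to 4 with the largest differences, and the 3 genes most correlated with each of the 9. Alternatives covered scaling, background correction, probe filter and choice, slide and replicate blocks, variance model and leaving out each array. Between marrow and liver of the same replicate number and time, deviations from group means correlated weakly, at 0.006 to 0.149. These values do not show whether the tissues shared mice. Exon and intron annotation on mm9 was not used here.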

Additional observations from a re-analysis of the deposited data

Results flagged for a closer look

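In 3 of the 51 groups of 4 arrays examined for the 10 genes, 1 array lay far from the other 3, and chance alone marks about 5% of groups. Procr in marrow at 0 h was -1.85 on replicate 2, against -2.86 to -2.76 on the others. Hoxa9 in liver at 24 h was -3.63 on replicate 1, against -4.12 to -4.09. Hlf in liver at 24 h was 0.17 on replicate 1, against 0.14 on the other 3, a gap that stands out only because these lie so close together.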

How the results depend on the processing

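The counts of the 10 genes passing the threshold stayed at 0 for every comparison of times and for both differences between tissues under all alternatives run, and at 8 to 9 between the tissues at 0 h. None of the 51 differences between times passed in any of 1224 recomputed values, but 23 of the 51 changed sign under at least 1 alternative; such sign changes of values that never passed are not counted as reversals. Hoxa9 between marrow and liver at 0 h went from -0.04 (adjusted p = 0.928 by limma) to 1.81 (adjusted p = 9.62e-07 by limma) with the mean of all kept probes. This counts as a reversal because the second value passed, although the first did not. That mean includes A_66_P124343, well above background on 0 of 12 liver arrays, so its size is not a measured difference. Within a tissue, samples of 1 replicate number had weak correlations of deviations, from -0.248 to 0.169 in marrow and -0.266 to 0.156 in liver. The replicate block left the counts of the 10 genes at 0. It changed the calls over all genes to 126 at 24 h and 100 at 48 h, against 217 and 264. Over all genes the other alternatives gave 69 (no filter on dim probes) to 388 (array weights) at 24 h and 100 to 741 at 48 h, leave-one-out 70 to 221 and 98 to 391, the authors' values 275 and 353, median scaling 142 and 123, a slide block 172 and 116, and only the arrays compared 138 and 184.

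List counts under all alternatives but the filter and leave-one-out were added after seeing the data, as was a percentile taken after averaging spots (196 and 240 calls over all genes). No filter on dim probes gave 0 erythroid, 0 surface and 0 T cell calls at 24 h, and 1 erythroid, 0 mast cell and 1 factor call at 48 h. Array weights gave 1 clock, 1 factor and 4 T cell calls at 24 h, and 1 cell cycle, 7 erythroid, 3 mast cell, 1 ligand, 1 surface and 3 T cell calls at 48 h. The trend and robust variance gave 1 dendritic, 1 factor and 4 T cell calls at 24 h, and 4 erythroid, 2 mast cell, 1 surface and 1 T cell call at 48 h. Median scaling gave 0 surface and 1 T cell call at 24 h, and 1 erythroid and 0 mast cell calls at 48 h. Only the arrays compared gave 0 surface and 0 T cell calls at 24 h, and 1 erythroid and 1 T cell call at 48 h. The authors' values gave 1 clock and 1 factor call at 24 h, and 1 surface and 1 T cell call at 48 h. The mean of all kept probes gave 1 ligand call at 24 h, and 0 mast cell and 1 factor call at 48 h; quantile normalization gave 1 clock call at 24 h and 1 erythroid call at 48 h; normexp gave 1 factor call at 24 h; the slide block gave 1 erythroid and 1 factor call at 48 h; and the replicate block gave 1 T cell call at 24 h and 1 factor call at 48 h. Leave-one-out counts ran from 0 to 1 for dendritic, erythroid, clock, factor and surface genes at 24 h and surface genes at 48 h, from 0 to 2 for T cell genes at both times and mast cell genes at 48 h, from 1 to 2 for factors at 48 h and from 1 to 4 for erythroid genes at 48 h. Median scaling ended the calls of Thy1, Cd3d, Ms4a2 and Rhag, no filter on dim probes those of all named list genes but Mllt3 and Tfrc at 48 h, and only the arrays compared those of Thy1, Cd3d, Cd8a and Rhag. The slide block ended those of Tal1, Rhag and Cd3d, the replicate block those of Tal1 and Cd8a, quantile normalization that of Rhag, and the mean of all kept probes those of Mllt3 and Ms4a2. The cause of these differences was not tested. Probes near background and 4 arrays per group limit what could be detected.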
